A study of Mus musculus with 12 samples.

Results

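The genes described here encode the enzymes of serine synthesis and of the folate one-carbon cycle, together with the transcription factor Atf4 and its target Asns. They were taken by symbol from a list of 10 genes (Phgdh, Psat1, Psph, Shmt1, Shmt2, Mthfd1, Mthfd1l, Mthfd2, Atf4 and Asns), each of which had 1 row among the 41128 gene rows of the count table. All 10 passed the filter on low counts in each of the 4 comparisons, and the lowest count of any of them in any library was 87 reads.

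Expression was measured by strand-specific poly(A) RNA-Seq in PreMegEs, progenitors that give rise to megakaryocytes and to erythroid cells, sorted from the bone marrow of adult C57BL/6 mice of 12 to 16 weeks. The 12 libraries form 4 groups of 3, each library being made from the marrow of 3 pooled mice. WT PreMegEs came from wild type mice. P2- and P2+ PreMegEs came from Runx1 P1-GFP::P2-hCD4/+ reporter mice, in which 1 Runx1 allele expresses GFP from the distal promoter P1 and a truncated human CD4 from the proximal promoter P2. GFP+ PreMegEs of these mice were divided into cells without (P2-) and with (P2+) surface hCD4, so both fractions carry the same reporter allele. KO PreMegEs came from RUNX1C knockout mice, homozygous for a P1-GFP allele that removes the P1 product RUNX1C and leaves P2 intact. The study asked what distinguishes the P2+ from the P2- fraction, which it found to be biased to the megakaryocytic and the erythroid lineage respectively, and what the loss of RUNX1C changes.

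Serine is made from the glycolytic intermediate 3-phosphoglycerate by PHGDH, PSAT1 and PSPH acting in turn. SHMT1 in the cytosol and SHMT2 in mitochondria move a carbon unit from serine to tetrahydrofolate, and MTHFD1 (cytosol), MTHFD1L and MTHFD2 (mitochondria) interconvert the resulting folate forms. These units feed the synthesis of purines and thymidylate and the methylation of homocysteine. ATF4, whose translation rises when eIF2 is phosphorylated in the integrated stress response, activates several genes of serine and asparagine synthesis, and erythroid precursors use the haem-regulated eIF2 kinase (Eif2ak1) for this response.

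ASNS, which makes asparagine, is a textbook ATF4 target, bound through a composite C/EBP-ATF element. The 120 bases before the RefSeq start of Asns and of Mthfd1 are printed because these genes differed most between P2+ and P2- PreMegEs (values below). Both are RefSeq promoter sequence of GRCm38.p6 in the direction of the gene, and capitals mark a match to TGATGNAA, the core of that element. The first stretch lies at chr6:7693210-7693329 on the minus strand and the second at chr12:76255112-76255231 on the plus strand. The GENCODE span of Asns given below runs to 7693254, so part of the first stretch, with its marked match, lies inside that span.
Asns: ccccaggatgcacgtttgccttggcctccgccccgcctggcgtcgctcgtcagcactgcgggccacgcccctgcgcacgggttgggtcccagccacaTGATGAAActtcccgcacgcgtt
Mthfd1: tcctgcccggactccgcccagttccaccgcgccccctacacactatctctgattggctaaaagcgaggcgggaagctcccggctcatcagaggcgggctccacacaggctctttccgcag
TGATGNAA was searched on both strands in the 250 bases before each RefSeq start, in 11 windows that cover the 10 genes. It was found in the window of Asns alone, from -23 to -16 relative to the start, and 3.45% of the 32851 promoter windows of the mouse table hold it. TGTGGT, a RUNX core that 14.0% of all windows hold, occurred in that of Shmt2 alone, from -249 to -244 on the minus strand of the gene. A motif of the GATA family, spelled AGATAA, is held by 9.99% of all windows and occurred in none of the 11. The RUNX and GATA letters were added after the expression values were seen.

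Total counts were 10726098 to 14445026 per library, and levels are given as CPM (counts scaled to a common library size) with TMM scaling over the 12 libraries. Replicate 2 of P2- and replicate 2 of P2+ stood apart from the other libraries. Their summed level of 12 immediate early genes was 13700 and 9240 CPM, against 205 to 1310 CPM in the other 10. Runx1 counts do not separate the P1 and P2 transcripts and so do not check the knockout of RUNX1C. They were 341 to 381 CPM in KO and 357 to 387 CPM in WT, 203 to 216 CPM in P2- and 613 to 659 CPM in P2+. The 8 PreMegE markers examined were detected in every group (summed level 2810 to 3490 CPM).

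The summed level of 12 erythroid markers was 2870 to 3400 CPM in P2-, 2690 to 3030 CPM in KO, 1740 to 1980 CPM in WT and 706 to 909 CPM in P2+. That of 12 megakaryocyte markers was 134 to 192 CPM in P2-, 368 to 399 CPM in KO, 537 to 601 CPM in WT and 746 to 1160 CPM in P2+. Of the erythroid markers, Car2, Ermap and Car1 were the highest in P2-, at means of 1190, 904 and 502 CPM. In P2+ against P2-, 6 of the 9 tested erythroid markers were called lower (17.0% over all genes) and 0 higher. Hbb-bt, Hbb-bs and Slc4a1 were not called (log2 fold changes 0.94, 0.08 and 0.51), and Hba-a1, Hba-a2 and Alas2 were not tested. Neutrophil and monocyte markers (10 genes) summed to 62.7 to 119 CPM in P2-, 80.3 to 131 CPM in KO, 176 to 307 CPM in WT and 303 to 445 CPM in P2+. Stem cell markers (7 genes) followed the order P2- (274 to 294 CPM), KO (329 to 366 CPM), WT (463 to 496 CPM) and P2+ (721 to 773 CPM). Lymphoid markers (10 genes) summed to 17.8 to 26.4 CPM in P2- and, in P2+, to 100 CPM in replicate 1 and 47.5 and 44.5 CPM in the other two, which lay within the ranges of WT (38.6 to 61.5 CPM) and KO (38.2 to 50.5 CPM). Mast cell and basophil markers (7 genes) summed to 84.3 to 137 CPM in P2+, 47.3 to 64.2 CPM in KO, 26.9 to 46.9 CPM in WT and 24.5 to 28.3 CPM in P2-. The 2 tested in KO against WT were called higher in KO (6.18% over all genes). Of the mast cell and basophil markers, Ms4a2 was at a mean of 70.6 CPM in P2+ and 9.20 CPM in P2- (log2 fold change 2.96), Cpa3 at 39.1 and 16.7 CPM (1.24) and Fcer1a at 1.91 and 0 CPM, all called higher in P2+ (edgeR adjusted p of at most 0.00147), while Cma1 and Tpsb2 were at 0 in all libraries. Fcer1a was at 3.76 CPM in WT and was not called in P2+ against WT (log2 fold change -0.96). Of the T cell markers, Cd3g and Cd8a were at 0 in all libraries and Cd3e reached 0.591 CPM in a WT library. Cd4 was at a mean of 2.47 CPM in P2+, 0.806 CPM in P2- and 0.587 CPM in WT. It was called higher in P2+ than in P2- (log2 fold change 1.62, edgeR adjusted p = 0.0104) and than in WT (2.04, 0.0234). The call against WT was lost without WT replicate 1 (edgeR adjusted p = 0.0866). These markers moved with the groups compared below, and their part in the results was not tested. In such bulk samples, fewer cells that express a gene and less RNA per cell cannot be told apart.

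In wild type PreMegEs the genes differed widely in level per length of exonic sequence (RPKM). Atf4 had the highest mean level, 93.7 ± 9.94 RPKM (SD, n = 3), followed by Shmt2 at 54.2 ± 0.94 RPKM and Psat1 at 42.6 ± 3.47 RPKM. A middle group held Shmt1 (14.6 ± 0.746 RPKM), Mthfd1l (13.1 ± 1.09 RPKM) and Mthfd1 (10.0 ± 0.6 RPKM). The lowest levels were those of Phgdh (6.74 ± 0.248 RPKM), Mthfd2 (5.93 ± 0.46 RPKM), Asns (5.24 ± 0.45 RPKM) and Psph (2.64 ± 0.34 RPKM). Among neighbours in this order, the WT libraries of Shmt1 overlapped those of Mthfd1l, and the libraries of Mthfd2 overlapped those of Asns. The mitochondrial enzyme gene Shmt2 was thus above the cytosolic Shmt1 in every WT library, whereas within serine synthesis Psat1 was above Phgdh and Psph.

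Fitted without pairing of the replicates, P2+ and P2- PreMegEs differed in 5 of the 10 genes. With the replicate number as a block, Atf4 was called as well (below). The folate enzyme genes Mthfd1 and Mthfd1l and the asparagine synthetase gene Asns were lower in P2+, and Psat1 and Shmt1 were higher in P2+. A gene was called at an adjusted p under 0.05 in edgeR's quasi-likelihood test with Benjamini-Hochberg adjustment over all 12836 genes tested, and log2 fold changes are P2+ minus P2-. Of all genes tested, 20.1% were called higher and 17.0% lower in this comparison, and the 2 of 10 higher and 3 of 10 lower stand near these background shares. Past a fold of 2, where 3.13% of all genes were called lower, stood Mthfd1 and Asns.

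**Figure D1:**
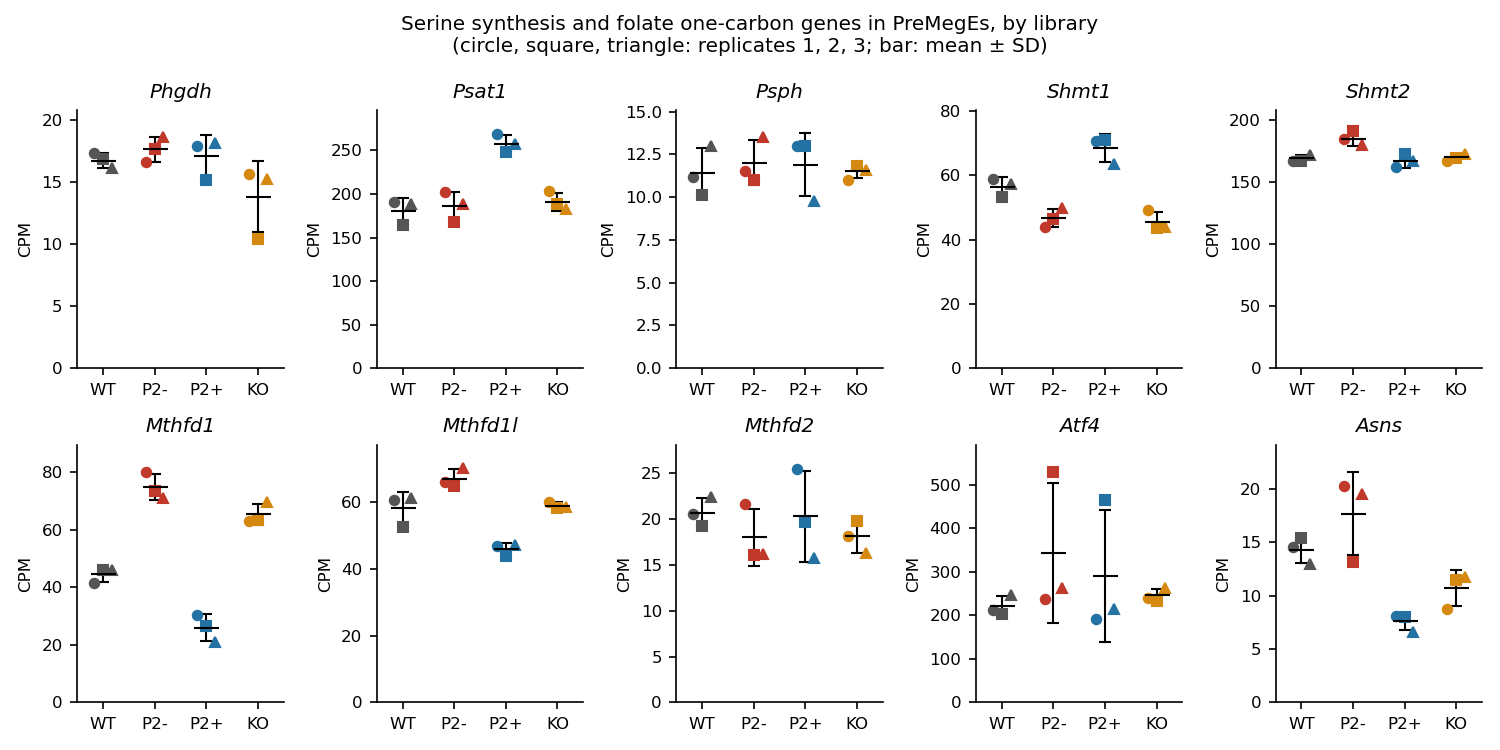
Expression of the 10 genes in CPM (vertical axis, from 0) in each of the 12 libraries, with the group on the horizontal axis. Circles, squares and triangles are replicates 1, 2 and 3 and bars give mean ± SD (n = 3); P2+ libraries of Mthfd1 (21.0 to 30.3 CPM) lie below all others, those of P2- (71.0 to 80.0 CPM) above all others.

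Among the genes of serine synthesis, Psat1 (chr19:15904678-15947337, minus strand), the aminotransferase gene, was at 269, 248 and 257 CPM in P2+ and at 202, 168 and 189 CPM in P2-. All P2+ libraries were above all P2- libraries, by 1.40-fold (log2 fold change 0.48, SE 0.08, edgeR adjusted p = 0.0021). Its levels in WT, 191, 164 and 188 CPM, and in KO, 203, 188 and 183 CPM, overlapped those of P2-. Phgdh (chr3:98313170-98339990, minus strand), which encodes the first enzyme of the route, was at 17.9, 15.1 and 18.1 CPM in P2+ and at 16.6, 17.6 and 18.6 CPM in P2-. These groups overlapped, and the log2 fold change was -0.03 with a 95% interval from -0.36 to 0.29. Psph (chr5:129765558-129787449, minus strand), the phosphatase gene, was at 13.0, 13.0 and 9.76 CPM in P2+ and 11.5, 11.0 and 13.5 CPM in P2-. These also overlapped (log2 fold change -0.01, interval -0.41 to 0.40).

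Reads of some of these genes may not be theirs alone. Of the 75-base stretches of Phgdh transcripts, 35.7% also occur in 12 annotated processed pseudogenes, of which 5 had rows in the table with 43 counts in all against 2465 for Phgdh. Psph shares 452 exonic bases (10.4% of its exonic length) with Cct6a on the opposite strand, Shmt1 184 bases (4.74%) with Smcr8 and Mthfd1 37 bases with Gm47525. Over the 12 libraries Cct6a had 25780 counts and Psph 1774, and Smcr8 had 19482 and Shmt1 8272. The setting for strand in the authors' counting is not given in the sources used here, so reads of these overlaps are uncertain. Shmt2 shares 0.236% of its stretches with the pseudogene Gm15544 (2192 counts, against 26015 for Shmt2), and the other genes share none with annotated pseudogenes.

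Of the serine hydroxymethyltransferases, the cytosolic one changed. Shmt1 (chr11:60788104-60811718, minus strand) was at 70.8, 71.0 and 63.5 CPM in P2+ and at 43.9, 46.5 and 49.7 CPM in P2-. The groups did not overlap, and P2+ was 1.48-fold higher (log2 fold change 0.56, SE 0.09, edgeR adjusted p = 0.00169). Shmt2 (chr10:127517123-127522444, minus strand) was at 162, 173 and 167 CPM in P2+ and at 185, 191 and 180 CPM in P2-. All P2+ libraries were below all P2- libraries, but the difference was small and was not called (log2 fold change -0.14, interval -0.29 to 0.02, edgeR adjusted p = 0.154). The RPKM ratio of Shmt2 to Shmt1 was 2.85, 3.03 and 3.29 in P2+ and 5.26, 5.13 and 4.52 in P2-, so Shmt2 was the higher of the pair in both fractions.

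Mthfd1 had the largest change of the 10 genes. It encodes the cytosolic trifunctional enzyme that makes 10-formyl- and methylene-tetrahydrofolate and lies at chr12:76255298-76319803 on the plus strand. Its levels were 30.3, 26.7 and 21.0 CPM in P2+ and 80.0, 73.5 and 71.0 CPM in P2-. The groups were far apart, P2+ being 2.85-fold lower (log2 fold change -1.51, SE 0.14, edgeR adjusted p = 6.25e-05). Mthfd1l (chr10:3973118-4167081, plus strand), whose product releases formate from mitochondria, was at 46.7, 43.7 and 47.1 CPM in P2+ and at 66.1, 64.8 and 70.1 CPM in P2-. It too was lower in every P2+ library, by 1.45-fold (log2 fold change -0.54, SE 0.09, edgeR adjusted p = 0.00147). Mthfd2 (chr6:83305691-83325908, minus strand), the mitochondrial dehydrogenase and cyclohydrolase gene, ranged from 15.7 to 25.5 CPM in P2+ and from 16.1 to 21.6 CPM in P2-. These overlapped (log2 fold change 0.19, interval -0.27 to 0.65).

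Because Mthfd1 and Shmt1 share the cytosol and moved in opposite directions, their RPKM ratio was also computed, a choice made after the values were seen and given with no test. It was 0.374, 0.328 and 0.29 in P2+, 0.614, 0.754 and 0.702 in WT, 1.13, 1.27 and 1.38 in KO and 1.59, 1.38 and 1.25 in P2-. Shmt1 was thus the higher of the pair in all P2+ and WT libraries and Mthfd1 in all KO and P2- libraries. The ranges of KO and P2- overlapped and those of the other groups did not.

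Asns (chr6:7675169-7693254, minus strand), whose promoter window holds the match to TGATGNAA marked above, was at 8.13, 8.01 and 6.63 CPM in P2+ and at 20.3, 13.2 and 19.5 CPM in P2-. Every P2+ library was below every P2- library, and the mean was 2.31-fold lower (log2 fold change -1.21, SE 0.20, edgeR adjusted p = 0.00185). It is a low count gene, with 87 to 277 reads per library. Replicate 2 of P2-, at 13.2 CPM, was within the WT range of 13.0 to 15.4 CPM.

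The Atf4 transcript (chr15:80255184-80257541, plus strand) varied more between libraries than between groups. It was at 191, 465 and 215 CPM in P2+ and at 237, 529 and 264 CPM in P2-, so in each fraction replicate 2 was about 2-fold above the others. Those are the libraries with the high immediate early genes, among them Fos at 903 and 1330 CPM. The other P2+ and P2- libraries lay close to WT (212, 203 and 248 CPM) and KO (240, 234 and 264 CPM). P2+ and P2- overlapped and the difference was not called (log2 fold change -0.23, SE 0.38, edgeR adjusted p = 0.676).

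Libraries of P2+ and P2- with the same number deviated together over all genes, and with the replicate number as a block the lower level of Atf4 in P2+ was called (log2 fold change -0.25, edgeR adjusted p = 0.00122). Atf4 was lower in P2+ in each of the 3 pairs. Without both replicate 2 libraries, an alternative chosen after seeing the data, its log2 fold change was -0.28 (edgeR adjusted p = 0.0324). The other 9 genes kept their calls with the block. The changes of Mthfd1, Asns, Mthfd1l, Shmt1 and Psat1 were called under all 15 alternatives tried other than the fold minimum, with an adjusted p of at most 0.01, and so also without the replicate 2 libraries. ATF4 is controlled largely in translation, which these libraries do not measure.

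**Figure D2:**
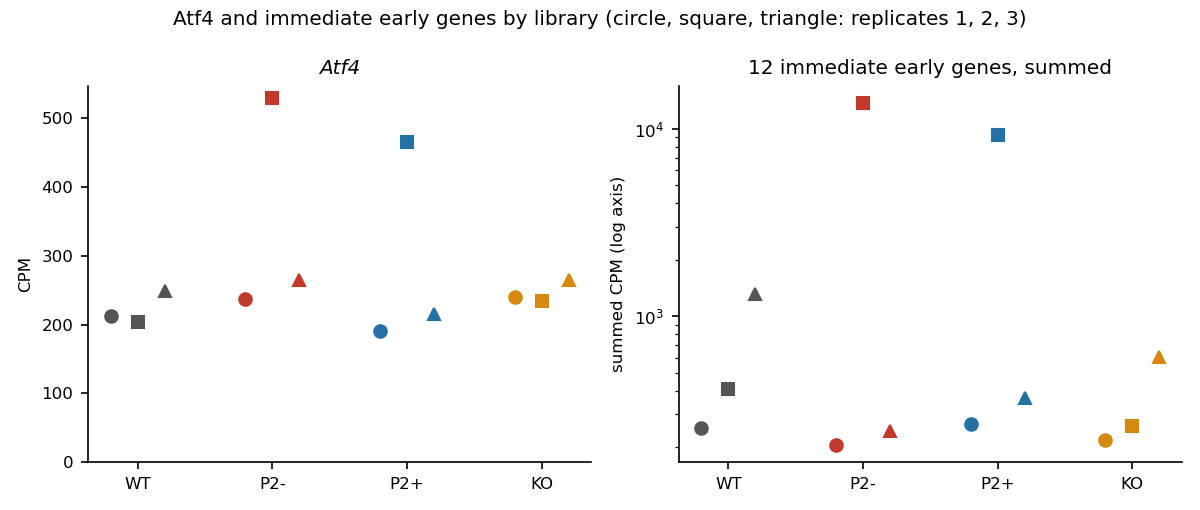
Atf4 in CPM (left, axis from 0) and the summed CPM of 12 immediate early genes (right, log axis) in each library by group, with circles, squares and triangles for replicates 1, 2 and 3. Replicate 2 of P2- (529 CPM Atf4) and of P2+ (465 CPM Atf4) are the highest in both panels.

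Compared with WT PreMegEs, which were not divided by promoter activity, P2+ PreMegEs had 2 of the 10 genes higher and 3 lower. Of the 12941 genes tested, 9.45% were called higher and 7.07% lower. Psat1 was 1.43-fold higher (log2 fold change 0.51, SE 0.08, edgeR adjusted p = 0.00212), Mthfd1 1.70-fold lower (-0.77, SE 0.14, adjusted p = 0.00401) and Asns 1.88-fold lower (-0.91, SE 0.17, adjusted p = 0.0057). These 3 calls held under all 14 alternatives other than the fold minimum. For Mthfd1 the WT libraries, at 41.4, 45.9 and 46.0 CPM, lay between those of P2+ and P2-. For Asns they were at 14.6, 15.4 and 13.0 CPM, above P2+ and overlapping P2-. The P2+ and P2- cells also carried the reporter allele of Runx1, which WT cells lacked. Sorted fraction and reporter allele cannot be told apart in the comparisons of P2+ and of P2- with WT.

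The other genes differed less between P2+ and WT. Mthfd1l, at 60.7, 52.5 and 61.1 CPM in WT, was 1.27-fold lower in P2+ (log2 fold change -0.34, SE 0.09, edgeR adjusted p = 0.0291). Its call was lost in 5 of 14 alternatives, without WT replicate 1 or 3 or without any 1 of the P2+ replicates (adjusted p up to 0.116). Shmt1, at 58.9, 53.3 and 57.3 CPM in WT, was 1.21-fold higher in P2+ (0.28, SE 0.08, adjusted p = 0.045) and lost its call in 10 of 14 alternatives, among them leaving out any WT library or P2+ replicate 1 or 2 (adjusted p up to 0.158). Phgdh, Psph, Shmt2, Mthfd2 and Atf4 were not called, with log2 fold changes between -0.02 and 0.40.

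P2- PreMegEs differed from WT in 1 gene, where 6.85% of the 12767 genes tested were called higher and 9.60% lower. Mthfd1 was 1.69-fold higher in P2-, with all P2- libraries above all WT libraries (log2 fold change 0.75, SE 0.09, edgeR adjusted p = 0.000357). Its call held under all 14 alternatives other than the fold minimum. Shmt1 was lower in every P2- library but not called (log2 fold change -0.27, interval -0.47 to -0.08, adjusted p = 0.059). It was called with library totals alone (adjusted p = 0.0307), with a 5 CPM filter (0.0449) and with all 12 libraries in 1 fit (0.0312). Mthfd1l and Shmt2 were above WT in every P2- library without being called (log2 fold changes 0.21 and 0.14). Asns overlapped WT (0.31, interval -0.09 to 0.71), as did Psat1 (0.04, interval -0.16 to 0.24). Atf4, at 0.64 with an interval from 0.08 to 1.19, was not called (adjusted p = 0.112). Its value came down to 0.18 without P2- replicate 2, and it was called without P2- replicate 1 (0.85, adjusted p = 0.0411) and with no filter on low counts (0.64, adjusted p = 0.01).

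RUNX1C knockout PreMegEs differed from WT in Mthfd1 and Shmt1. Of the 12784 genes tested, 6.18% were called higher and 8.76% lower in KO. Mthfd1 was at 63.2, 63.5 and 69.6 CPM in KO, above all WT libraries, and 1.46-fold higher (log2 fold change 0.55, SE 0.09, edgeR adjusted p = 0.00032). This call held under all 14 alternatives other than the fold minimum. Shmt1 was at 49.1, 43.7 and 43.9 CPM in KO, below all WT libraries, and 1.25-fold lower (-0.32, SE 0.09, adjusted p = 0.0241). The call of Shmt1 was lost without WT replicate 1 (adjusted p = 0.0726), KO replicate 2 (0.0933) or KO replicate 3 (0.0975).

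The remaining genes were not called in KO. Asns was at 8.73, 11.5 and 11.8 CPM, below all WT libraries (log2 fold change -0.43, interval -0.79 to -0.07, edgeR adjusted p = 0.103). Phgdh was at 15.6, 10.4 and 15.2 CPM, also below WT (17.3, 16.8 and 16.1 CPM), with a log2 fold change of -0.29 that came to -0.13 without KO replicate 2. Psat1 (0.07, interval -0.08 to 0.22), Shmt2 (0.00, interval -0.13 to 0.13) and Mthfd1l (0.01, interval -0.17 to 0.19) overlapped WT. Atf4 had a log2 fold change of 0.15 (interval -0.01 to 0.30) and was called only without WT replicate 3 (0.23, adjusted p = 0.0246).

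**Figure D3:**
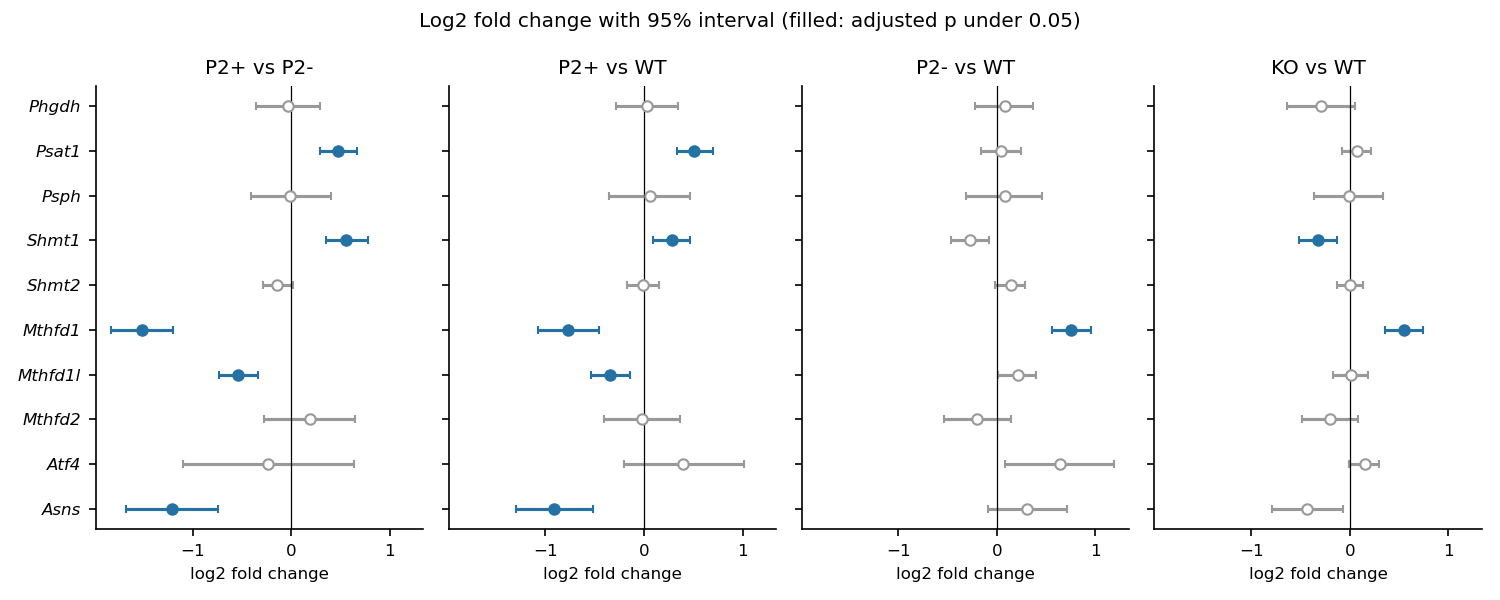
Log2 fold change (horizontal axis, first group minus second) of the 10 genes in the 4 comparisons, with 95% intervals from the fit of 3 against 3 libraries. Filled points had an edgeR adjusted p under 0.05; Mthfd1 is filled in all 4 comparisons, at -1.51, -0.77, 0.75 and 0.55.

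Mthfd1 was called in each of the 4 comparisons, lower in P2+ and higher in P2- and KO. The 3 comparisons with WT share the WT libraries, and those of P2+ and P2- enter 2 comparisons each, so the comparisons are not independent of one another. Whether the KO libraries were prepared together with the others is not given in the sources used here, so preparation and genotype cannot be told apart.

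The other genes of the pathway were taken from 8 lists of 108 genes, of which 88 were tested in P2+ against P2-. Of these, 12 were called higher and 32 lower in P2+ (20.1% and 17.0% over all genes), with a median log2 fold change of -0.17 against -0.02 over all genes. Without at least 1 of the 6 libraries, 5 of the 12 and 11 of the 32 calls were lost. Among the 20 cytosolic aminoacyl-tRNA synthetases, which charge tRNAs and many of which are known ATF4 targets, 13 were called lower, and 1 of the 20 had a log2 fold change above 0. Their median log2 fold change was -0.39, with Cars (-1.03), Hars (-0.70) and Farsa (-0.63) the most reduced. Their summed level was 1380 to 1390 CPM in P2+, 1650 to 1770 CPM in P2-, 1430 to 1530 CPM in WT and 1510 to 1580 CPM in KO. Against WT, 3 of the 20 were called lower in P2+, 5 higher in P2- (all 20 log2 fold changes were above 0) and 2, Hars (0.39) and Farsa (0.25), higher in KO. Over all genes, 7.07%, 6.85% and 6.18% were called in these directions. The 3 calls in P2+ were each lost without 1 library, Gars without WT replicate 3 (adjusted p = 0.105) and Iars and Farsa without P2+ replicate 1 (0.131 and 0.125). Farsa in KO was lost without KO replicate 1 (0.124), 3 of the 5 calls in P2- were lost without at least 1 library, and so were 3 of the 13 in P2+ against P2-.

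Within folate uptake and the folate cycle, 4 of 14 tested genes were called higher and 4 lower in P2+ than in P2- (20.1% and 17.0% over all genes), of which 1 and 2 calls were lost without at least 1 library. Lower were Fpgs, the synthase that adds the glutamate tail which retains folate in cells, at 45.5 ± 2.78 CPM in P2+ and 105 ± 9.98 CPM in P2- (SD, n = 3; log2 fold change -1.19, SE 0.09, edgeR adjusted p = 2.72e-05), and the reduced folate carrier Slc19a1 (-0.62, adjusted p = 0.00135). Mthfd2l, a relative of Mthfd2, was lower at -0.62 but lost its call without P2- replicate 3 (adjusted p = 0.145). Higher were Aldh1l1, which oxidises 10-formyl-tetrahydrofolate (9.31 ± 0.776 and 3.24 ± 0.476 CPM, log2 fold change 1.53), Ggh, the hydrolase that removes the glutamate tail (1.01), and the thymidylate synthase gene Tyms (0.62). Fpgs was also higher in P2- than in WT (0.65, adjusted p = 0.000818) and in KO than in WT (0.49, adjusted p = 0.000128). Of 12 S phase genes, 5 were called higher in P2+ than in P2- (20.1% over all genes), of which Mcm3 and Rrm1 lost their calls without P2- replicate 3 (edgeR adjusted p = 0.0847 and 0.0643), and their part in the change of Tyms was not tested.

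The methionine cycle takes up folate methyl groups. Its list also holds transsulfuration genes and Ahcyl1 and Ahcyl2, relatives of the cycle gene Ahcy. Of the 8 tested genes of the list, 5 were called lower and 1 higher in P2+ than in P2- (17.0% and 20.1% over all genes). Without at least 1 library, 2 of the 5 lower calls were lost. Lower were Ahcyl2 (log2 fold change -0.84), the methionine synthase reductase gene Mtrr (-0.76) and the methionine synthase gene Mtr (-0.45). Ahcyl2 was also higher in P2- (0.52, edgeR adjusted p = 0.00308) and in KO (0.53, adjusted p = 0.000495) than in WT. The higher gene, Ahcyl1 (0.27), lost its call without P2- replicate 2 (adjusted p = 0.124).

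Purine synthesis, which uses 10-formyl-tetrahydrofolate at the steps of GART and ATIC, had 2 of 13 genes called higher and 3 lower in P2+ against P2- (20.1% and 17.0% over all genes). The lower genes included both of these steps, Gart (99.8 ± 5.01 and 160 ± 3.94 CPM, log2 fold change -0.67, edgeR adjusted p = 0.000141) and Atic (-0.41, adjusted p = 0.00207), beside Pfas (-0.35), whose call was lost without P2- replicate 3 (adjusted p = 0.0626). Gart was higher in P2- than in WT (0.45, adjusted p = 0.00506) and in KO than in WT (0.29, adjusted p = 0.01), the last being lost without KO replicate 3 (adjusted p = 0.0534). Adssl1 (0.99) and Impdh1 (0.38) were higher in P2+, Impdh1 losing its call without P2- replicate 3 (edgeR adjusted p = 0.126). In KO, Adssl1 (-0.61, edgeR adjusted p = 0.0417) and Impdh1 (-0.28, 0.0432) were lower than in WT. These calls were lost without WT replicate 1 (0.207) and KO replicate 1 (0.141), respectively. Adssl1 was also lower in P2- than in WT (-0.72, edgeR adjusted p = 0.0346, and 0.145 without WT replicate 1).

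Of 18 tested genes of the integrated stress response, 2 were called higher and 3 lower in P2+ than in P2- (20.1% and 17.0% over all genes). The haem-regulated kinase gene Eif2ak1 (log2 fold change -0.48, edgeR adjusted p = 0.00235), the phosphatase subunit gene Ppp1r15b (-0.45) and the proline synthesis gene Aldh18a1 (-0.75, adjusted p = 6.55e-05) were lower, Ppp1r15b losing its call without P2+ replicate 3 (adjusted p = 0.0667). Vldlr (2.04, adjusted p = 2.33e-05) and Gpt2 (0.87) were higher, Gpt2 losing its call without P2+ replicate 3 (adjusted p = 0.161). In KO, 3 of 19 were called higher, among them Ddit3 (0.57, adjusted p = 0.00246), which encodes CHOP, and 3 lower, Pycr1 (-1.07), Gpt2 (-0.90) and Vldlr (-0.84), where 6.18% and 8.76% of all genes were called. Of the 3 higher calls that of Ddit3 held without any 1 library, and those of Aldh18a1 (without WT replicate 1, adjusted p = 0.188) and Ppp1r15b (without KO replicate 3, 0.121) were lost. The 3 lower calls were also lost without 1 library, Pycr1 and Gpt2 without WT replicate 2 (adjusted p = 0.213 and 0.126) and Vldlr without WT replicate 1 (0.0528). The summed level of the list was highest in replicate 2 of P2- (2220 CPM) and of P2+ (1720 CPM), against 1310 to 1610 CPM in the other libraries. The stress response targets Trib3 and Chac1 reached at most 17 and 12 counts in any library and were not tested. Atf3, another target, was not tested either: it was at 62.2 CPM in replicate 2 of P2- and 30.5 CPM in replicate 2 of P2+ and at 0 in WT and KO.

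Of the amino acid transporters, 2 of 9 were called higher and 2 lower in P2+ against P2- (20.1% and 17.0% over all genes), of which 1 and 1 were lost without at least 1 library. Slc7a6, a carrier of basic and neutral amino acids, was at 99.5 ± 2.73 CPM in P2+ and 33.3 ± 5.20 CPM in P2- (log2 fold change 1.59, SE 0.12, edgeR adjusted p = 1.79e-05) and lower in P2- than in WT (-0.87). The serine and alanine carrier Slc1a4 was higher in P2- than in WT (0.98, adjusted p = 0.00276) and lower in P2+ than in P2- (-0.59, adjusted p = 0.0322), the latter lost without P2- replicate 3 (adjusted p = 0.102). Slc7a5, the large neutral amino acid carrier gene, was lower in P2+ than in P2- (-0.40, adjusted p = 0.00396).

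Of the 2 tested genes of the glycine cleavage system, Dld was called lower in P2+ than in P2- (log2 fold change -0.34, edgeR adjusted p = 0.0107, and 0.0508 without P2+ replicate 1), where 17.0% of all genes were. Both were called higher in P2- than in WT (6.85% over all genes), Gcsh at 0.39 and Dld at 0.29, and lost the call without WT replicate 2 (edgeR adjusted p = 0.181) and WT replicate 1 (0.156), respectively. The decarboxylase gene Gldc was at 0 in all libraries, and the transsulfuration genes Cbs and Cth reached at most 3 and 8 counts. Among genes that use or break down serine, Sptlc2 was higher (0.38) and Sdsl lower (-0.62) in P2+.

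**Figure D4:**
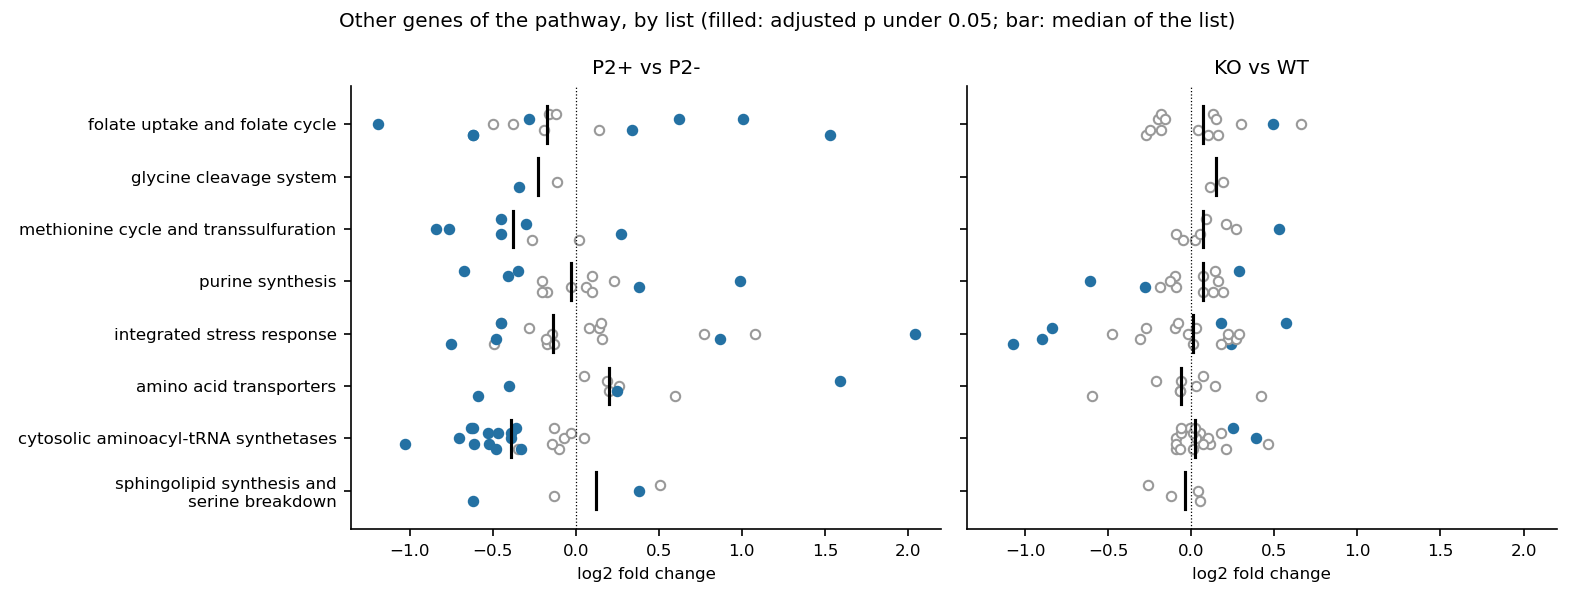
Log2 fold change (horizontal axis) of the tested genes of the 8 pathway lists (rows) in P2+ against P2- (left) and KO against WT (right), 1 point per gene, filled at an edgeR adjusted p under 0.05, with a bar at the median of each list. In P2+ against P2-, 13 of the 20 aminoacyl-tRNA synthetases are filled, all to the left of 0, and in KO against WT 2, both to the right.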

How the data were processed

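PreMegE RNA of 12 libraries was sequenced in paired 75-base reads. Per the labels and methods, the authors mapped reads to GRCm38 with Bowtie2 (2.21 in the submitters' processing notes) and deposited whole-number counts per gene from featureCounts. The deposited counts are not normalized, and settings for strand and multimapping are not given in the sources used here. Reads mapped without splicing awareness or to repeated copies could lower or mix counts of single genes.

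Groups came from sample titles. Each comparison was fitted on its own 6 libraries with edgeR 4.0.16 (R 4.3.3; TMM, glmQLFit and glmQLFTest), keeping genes that reached 1 CPM in 3 or more libraries, with Benjamini-Hochberg adjustment over all genes tested and calls at 0.05. The SE is the size of the log2 fold change divided by the root of F, and intervals are 95%, from the t distribution of the fit. Without the block, the p-values measure the spread between pools of 3 mice and ignore any pairing of P2+ and P2- libraries by number. CPM was scaled over 12 libraries, and RPKM used exonic length in GENCODE release M21 (GRCm38), matched for 40254 of 41128 rows. Pathway genes are named as up to 3 calls in each direction per list with the largest changes. The members and lists were chosen with earlier results of these data known.

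Deviations from group means of P2+ and P2- libraries with the same number correlated at 0.402, 0.59 and 0.432 over 12836 genes (other pairs -0.386 to 0.054), so the number was used as a block. Whether libraries with the same number came from the same mice is not given in the sources used here. In replicate 2 of both, Xist was at 0 to 5.18 CPM, and in replicate 3 of both Ddx3y was at 0, so pools of 1 number also match in sex. Alternatives were the exact test of edgeR, DESeq2 1.42.0, RLE scaling, library totals alone, other filters, all 12 libraries in 1 fit, the block, a fold minimum of 2 and each replicate left out.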

Additional observations from a re-analysis of the deposited data

How the results depend on the processing

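Asns and Psph had the fewest reads of the members, 87 to 277 a library, and depth as a limit was not tested. With 3 pools a group and no block, the log2 fold change of Atf4 in P2+ against P2- had an interval from -1.10 to 0.64. Atf4 had 2283 to 6740 reads a library. For the causes of the changes below, the cause was not tested.

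The comparisons are P2+ against P2-, P2+ against WT, P2- against WT and KO against WT, in this order. With a fold minimum of 2, which removes smaller changes by construction, called members were 2, 0, 0 and 0, pathway genes 6, 2, 0 and 1, and all genes 1626, 497, 597 and 436. Members called in P2- against WT were 2 with library totals alone, no filter, a 5 CPM filter or all 12 libraries in 1 fit. All 12 libraries in 1 fit gave 5 pathway genes in KO against WT. With library totals alone, 27.7% of calls in P2- against WT were higher, against 41.6%.

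Leaving out 1 replicate at a time gave 3 to 4 members, 4 to 14 pathway genes and 1213 to 2447 genes in P2+ against WT, 1 to 2, 7 to 21 and 1068 to 2189 in P2- against WT, and 1 to 3, 5 to 13 and 1194 to 1648 in KO against WT. All genes fell by over 1.5 times without WT replicate 1 (1230) or 2 (1213) in P2+ against WT, without WT replicate 1 (1068), 2 (1121) or 3 (1383) in P2- against WT, and without KO replicate 3 (1194) in KO against WT.

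With the replicate block, P2+ against P2- gave 6 members, 54 pathway genes and 6514 genes, and changed no other call of a member than that of Atf4. In comparisons with WT the samples share only a number (same-number correlations -0.098 to 0.186): the block gave 9 pathway genes and 4 members in P2+ against WT, 1 member in P2- against WT and 2 in KO against WT.

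Sign changes concerned log2 fold changes that were not called, those of Atf4 being -0.23 in P2+ against P2- and 0.40 in P2+ against WT with all libraries. In P2+ against P2- these were Psph with library totals alone (0.03) or a 5 CPM filter (0.01) and Phgdh without both replicate 2 libraries (0.06). In P2- against WT it was Psat1 with library totals alone (-0.01). In KO against WT they were Shmt2 under DESeq2 and RLE scaling (0.00), with no filter and with all 12 libraries (0.01), and Mthfd1l with library totals alone (-0.01). With 1 replicate left out, ranges crossing 0 were, in P2+ against P2-, Atf4 -0.74 to 0.23, Phgdh -0.08 to 0.06 and Psph -0.06 to 0.13. In P2+ against WT they were Psph -0.02 to 0.18, Shmt2 -0.03 to 0.02, Mthfd2 -0.21 to 0.13, Phgdh -0.02 to 0.11 and Atf4 -0.12 to 0.63. In P2- against WT they were Psat1 -0.03 to 0.10 and Psph -0.02 to 0.18, and in KO against WT Mthfd1l -0.05 to 0.05, Psph -0.08 to 0.09 and Shmt2 -0.01 to 0.02. Of the other values of single members, 539 kept direction and call.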
